A study of Mus musculus with 20 samples.

Results

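The genes described here are 46 genes that mark T, natural killer (NK) and B lymphocytes, followed in whole tumors. They were chosen by mouse symbol and matched to Ensembl identifiers. All 46 were found among the 35226 genes of the count table. They comprise 25 T cell genes, 11 genes of NK cells and cytotoxic effectors, and 10 B cell genes. A filter on low counts left 16665 genes for testing and passed 39 of the 46. The 7 that did not pass were Sh2d1a, Ifng, Tbx21, Ms4a1, Blk, Cr2 and Ighd, which are given by their values only.

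T cells recognize antigen through a receptor whose signal is carried by the CD3 chains, with CD4 marking helper and regulatory cells and CD8 marking cells that can kill. CD8 T cells and NK cells kill by releasing perforin, which opens the target membrane, and granzymes, proteases that enter and trigger cell death. B cells carry surface immunoglobulin coupled to CD79 chains and can form aggregates with T cells beside tumors or reside in lymph nodes. Adenosine is known to restrain T and NK cells through the receptor encoded by Adora2a, which KW6002 blocks.

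Poly(A) RNA was sequenced from 20 subcutaneous LLC1 tumors, 1 library per tumor and 5 tumors in each of 4 groups. LLC1 cells derive from the Lewis lung carcinoma of the mouse. They were grown in the right flank of male C57Bl6/J mice aged 8 to 10 weeks, so that the hosts had their own immune cells. Mice were randomized when tumors reached 100 mm3. The groups were vehicle, KW6002 (istradefylline, an antagonist of that receptor), cisplatin (a platinum drug that damages DNA) and cisplatin with KW6002, called cotreatment. The labels name no transgene or deletion, and all 4 groups carried the same line. Doses and treatment times for these mice were not given in the sources used here. P values measure the spread between the tumors sequenced.

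Libraries held 28.4 to 41 M reads, and values below are counts per M reads (CPM) after scaling library sizes. Lymphocyte genes took little of each library, since the 25 T cell genes summed to 9.85 to 91.9 CPM and 12 macrophage genes to 2471 to 4582 CPM. In bulk tumor RNA, fewer cells of a type and less RNA per cell cannot be told apart. The library codes in the labels fell into 2 runs, an earlier one with 8 tumors and a later one with 12, each with tumors of every group.

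One tumor stood apart. KW6002 tumor 1 had the highest CPM of all 20 tumors for 40 of 46 genes. The exceptions were Pdcd1 and Ifng, highest in KW6002 tumor 4, Gzma and Klrb1c, highest in cisplatin tumor 4, and Gzmb and Prf1, highest in cisplatin tumor 5. The same tumor carried transcripts of lymph node stroma. Ccl21a, a chemokine of lymph node stroma and lymphatic vessels, had 160 reads there and at most 4 in any other tumor, and Glycam1, a product of the high endothelial venules through which lymphocytes enter nodes, had 222 reads against at most 4. Ccl19, Chst4 and Madcam1 of the same list had 7, 6 and 3 reads there and at most 1 elsewhere, Fcgbp had 0 and Enpp6 3 reads, while Cxcl13 reached 331 reads there and 712 reads in cotreatment tumor 5. The summed level of these 8 genes was 0.228 to 3.20 CPM with vehicle, 0.451 to 22.8 CPM with KW6002, 0.304 to 5.00 CPM with cisplatin and 2.15 to 22.3 CPM with cotreatment. Their part in the lymphocyte values was not tested. The same tumor was the highest of the 20 for 26 of 51 further T and NK cell genes, 19 of 26 further B and plasma cell genes, 8 of 10 neutrophil genes, 6 of 10 pan-leukocyte genes and 0 of 12 macrophage genes. The 8 fat genes summed to 159 and 95.4 CPM in KW6002 tumors 1 and 4 against 19.1 to 36.0 CPM in the other KW6002 tumors, and were highest in cisplatin tumor 4 at 35.3 CPM and in cotreatment tumor 1 at 77 CPM within those groups. The summed T cell genes were highest in the same tumors, at 91.9, 38.5, 35.2 and 18.3 CPM. In the vehicle group tumor 2 had the most fat transcripts, 319 CPM, and 26.7 CPM of T cell genes, below tumors 1 and 3. The part of fat in the lymphocyte values was not tested.

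**Figure D1:**
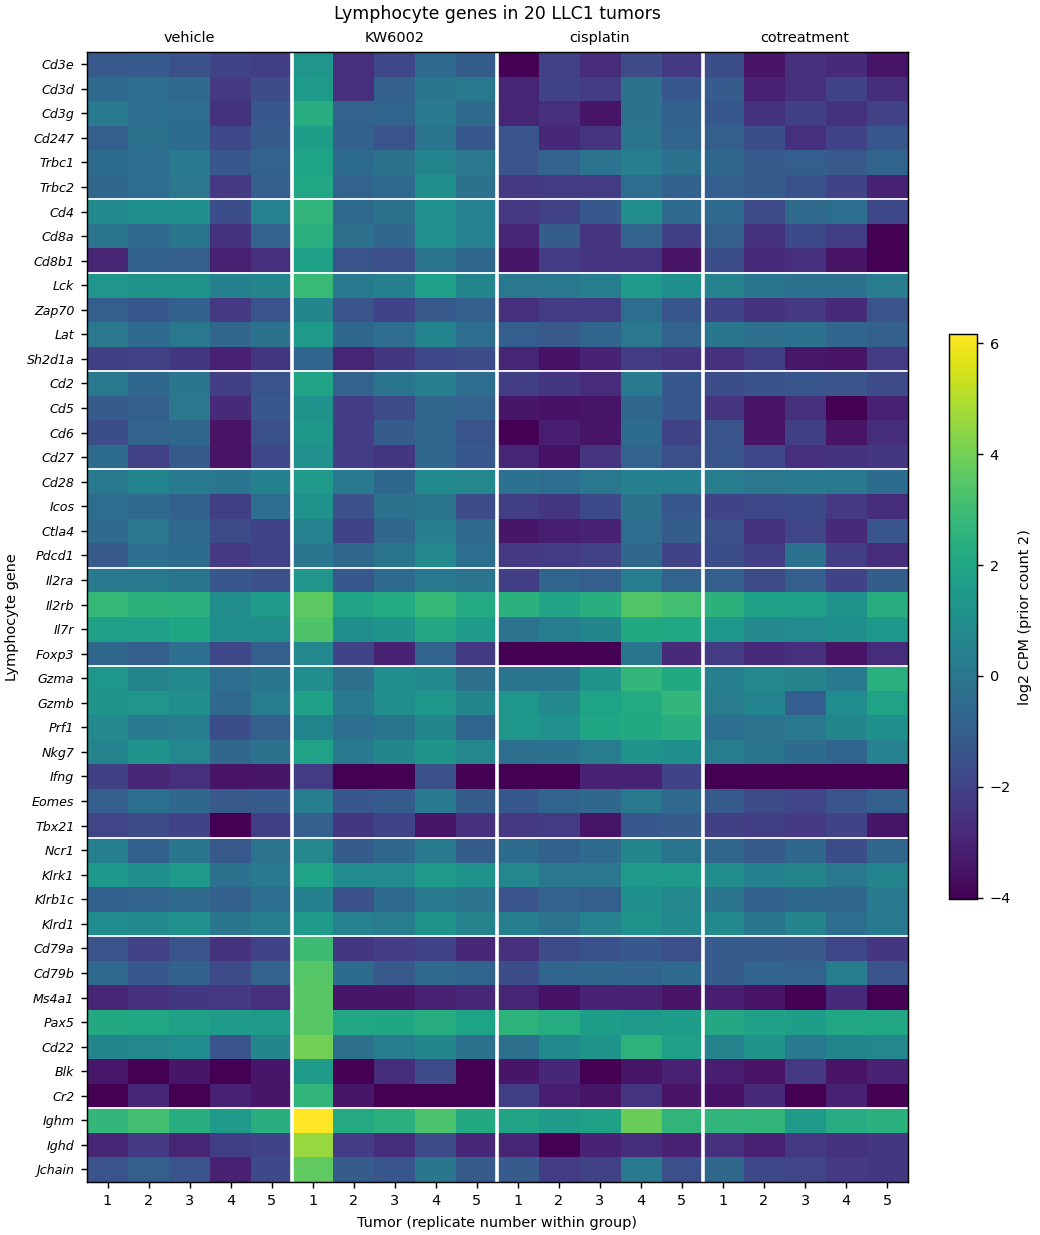
Heat map of log2 CPM (prior count 2) for the 46 lymphocyte genes (rows, grouped by subset with white lines) in 20 tumors (columns, 5 per group, numbered by replicate). KW6002 tumor 1 is the brightest column for 40 of 46 genes, and within the cisplatin group tumor 4 is the highest for 34 of 46.

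Single tumors set much of the level in the KW6002 group and for some genes in the cisplatin group. In the vehicle group tumor 4 was the lowest of 5 for 37 of 46 genes. In the KW6002 group tumor 1 was the highest for 42 genes and tumor 2 the lowest for 23. Among cisplatin tumors, number 4 was the highest for 34 genes. Among cotreated tumors, number 1 was the highest for 23. Ties were counted for no tumor. A tumor was said to dominate a group for a gene when it held over 50% of the CPM summed over the 5 tumors and the group averaged at least 10 reads. This held for 31 gene and group pairs, of which 25 were KW6002 tumor 1, 5 were cisplatin tumor 4, 1 was cotreatment tumor 5 and 0 were vehicle tumors. Without tumor 1 the KW6002 group averaged under 10 reads for Cd27, Foxp3, Cd79a, Ms4a1, Blk, Cr2 and Ighd. Without tumor 4 the cisplatin group did so for Cd3d, Cd3g, Cd2 and Jchain. These pairs met the minimum only through the dominating tumor, so their dominance follows in part from it. Dominance over all genes was not counted.

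Levels between genes were compared per kilobase of exon in the vehicle group. The highest level was that of Ighm, the constant region of immunoglobulin M, at 2.97 CPM per kb. Next came Gzma at 1.46, Nkg7 at 1.42, Klrd1 at 1.22, Gzmb at 1.18 and Il2rb at 1.06 CPM per kb. T cell receptor genes followed, with Trbc1 at 0.903 and Trbc2 at 0.818 CPM per kb, above Cd4 at 0.372 and Cd8a at 0.166 CPM per kb. The lowest were Ms4a1 at 0.0175, Blk at 0.0074 and Cr2 at 0.00389 CPM per kb, all 3 B cell genes. Vehicle tumors thus held transcripts of cytotoxic lymphocytes and T cells, while B cell genes were spread from the highest level to the lowest. Below Ighm, Pax5 at 0.397, Cd79b at 0.312 and Cd22 at 0.264 CPM per kb were above Cd8a. Cd79a at 0.154, Jchain at 0.109 and Ighd at 0.0669 CPM per kb were below Cd8a. Ms4a1, the gene of the B cell antigen CD20, was near 0.

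The CD3 chains and the constant regions of the T cell receptor beta chain define T cells as a whole. Cd3e lies at chr9:44998740-45009627 on the minus strand (mm10), in a cluster with Cd3d and Cd3g. Cd3e counted 0.38, 0.422, 0.294, 0.193 and 0.163 CPM in the vehicle group, 2.39, 0.0967, 0.222, 0.672 and 0.434 CPM in the KW6002 group, 0, 0.178, 0.0908, 0.245 and 0.144 CPM in the cisplatin group and 0.269, 0.0276, 0.102, 0.0826 and 0.0312 CPM in the cotreated group. Cd3d measured 0.622, 0.703, 0.653, 0.138 and 0.261 CPM with vehicle, 2.8, 0.0967, 0.475, 0.929 and 1.01 CPM with KW6002, 0.0676, 0.203, 0.151, 0.797 and 0.373 CPM with cisplatin and 0.416, 0.0551, 0.102, 0.193 and 0.0936 CPM with both drugs. Cd3g stood at 1.07, 0.738, 0.718, 0.11 and 0.359 CPM in vehicle tumors 1 to 5, at 5.01, 0.516, 0.538, 1.02 and 0.651 CPM after KW6002, at 0.0676, 0.102, 0.0303, 0.828 and 0.488 CPM after cisplatin and at 0.367, 0.11, 0.171, 0.11 and 0.187 CPM after cotreatment. For all 3 CD3 genes KW6002 tumor 1 was the highest of the 20, at 3.56, 2.76 and 4.67 times the next tumor, and it held 62.7%, 52.7% and 64.7% of the CPM of its group. Cisplatin tumor 4 held 50.1% of the group's Cd3d and 54.6% of its Cd3g. All 4 groups overlapped for Cd3e and Cd3d, whereas for Cd3g every cotreated tumor was below every KW6002 tumor. Cd247 counted 0.449, 0.809, 0.686, 0.22 and 0.424 CPM in the vehicle group, 3.05, 0.484, 0.317, 0.865 and 0.362 CPM in the KW6002 group, 0.338, 0.0762, 0.121, 0.859 and 0.546 CPM in the cisplatin group and 0.465, 0.276, 0.102, 0.193 and 0.343 CPM in the cotreated group. Cd247 encodes the CD3 zeta chain, and 60.1% of its KW6002 group total was tumor 1. Of its 50-base words, 55.9% also occur in other genes, chiefly Pou2f1 and Gm16565, which overlap it, so its value is uncertain. Trbc1 measured 0.691, 0.703, 1.11, 0.358 and 0.522 CPM with vehicle, 3.64, 0.677, 0.791, 1.44 and 0.94 CPM with KW6002, 0.338, 0.508, 0.847, 1.2 and 0.804 CPM with cisplatin and 0.587, 0.386, 0.443, 0.385 and 0.53 CPM with both drugs. Trbc2 stood at 0.587, 0.703, 0.947, 0.138 and 0.457 CPM in vehicle tumors 1 to 5, at 4.2, 0.516, 0.633, 1.99 and 0.796 CPM after KW6002, at 0.135, 0.152, 0.151, 0.736 and 0.488 CPM after cisplatin and at 0.44, 0.413, 0.307, 0.193 and 0.0624 CPM after cotreatment. The beta chain constant genes shared 40.5% (Trbc1) and 44.0% (Trbc2) of their 50-base words with each other, so their separate values are uncertain. Both were lower in each cotreated tumor than in each KW6002 tumor, and both were highest in KW6002 tumor 1, with KW6002 tumor 4 next.

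The start sites of Cd3d and Cd3g lie 1355 bases apart on opposite strands, with no overlap of their promoter windows. The window of Cd3d is shown because its group total was dominated by 1 tumor in both the KW6002 and cisplatin arms. Promoter windows, from RefSeq (GRCm38.p6), span 250 bases before to 50 after the start and are written 5′ to 3′ on the gene's strand, with motif matches on either strand in capitals. Of the 46 genes, 30 matched this table, with 35 windows. The window of Cd3d, at chr9:44981536-44981835 on the plus strand, holds 1 match to the STAT motif TTCNNNGAA, a motif found in 8.3% of all 32851 windows of this length and in 17.1% of the 35.
Cd3d: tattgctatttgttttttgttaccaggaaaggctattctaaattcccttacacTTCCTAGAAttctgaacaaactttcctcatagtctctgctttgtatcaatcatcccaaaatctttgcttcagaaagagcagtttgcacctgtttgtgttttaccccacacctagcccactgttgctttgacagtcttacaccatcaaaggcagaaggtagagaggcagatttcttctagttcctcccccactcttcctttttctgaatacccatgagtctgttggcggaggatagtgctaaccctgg

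Coreceptors separate the T cell subsets. Cd4 counted 1.76, 2.07, 2.06, 0.275 and 1.34 CPM in the vehicle group, 6.37, 0.645, 0.823, 2.15 and 1.34 CPM in the KW6002 group, 0.135, 0.178, 0.363, 1.87 and 0.66 CPM in the cisplatin group and 0.661, 0.248, 0.648, 0.716 and 0.218 CPM in the cotreated group. Cd8a measured 0.863, 0.633, 0.882, 0.11 and 0.522 CPM with vehicle, 5.41, 0.774, 0.57, 2.15 and 1.34 CPM with KW6002, 0.0676, 0.432, 0.121, 0.521 and 0.172 CPM with cisplatin and 0.465, 0.11, 0.239, 0.165 and 0 CPM with both drugs. Cd8b1 stood at 0.0691, 0.492, 0.457, 0.055 and 0.0978 CPM in vehicle tumors 1 to 5, at 3.39, 0.322, 0.285, 0.865 and 0.579 CPM after KW6002, at 0.0338, 0.152, 0.121, 0.123 and 0.0287 CPM after cisplatin and at 0.269, 0.0827, 0.102, 0.0275 and 0 CPM after cotreatment. Cd4 encodes the coreceptor of helper and regulatory T cells and is also transcribed by some myeloid cells, while Cd8a and Cd8b1 encode the CD8 chains of cytotoxic T cells. The highest tumor in all 3 was KW6002 tumor 1, which held 56.3%, 52.8% and 62.3% of its group. Cisplatin tumor 4 held 58.3% of the Cd4 of its group. No cisplatin or cotreated tumor reached the lowest KW6002 tumor for Cd8a or Cd8b1, and cotreatment tumor 5 had 0 reads of both. Cd8a averaged 0.602 ± 0.315 CPM with vehicle, 2.05 ± 1.98 with KW6002, 0.263 ± 0.201 with cisplatin and 0.196 ± 0.174 with cotreatment (SD, n = 5). Without tumor 1 the KW6002 mean was 1.21 ± 0.705 CPM (SD, n = 4).

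Signaling genes act just inside the receptor. Lck counted 2.35, 2.18, 2.15, 1.32 and 1.47 CPM in the vehicle group, 7.24, 1.1, 1.27, 3.23 and 1.48 CPM in the KW6002 group, 0.981, 0.965, 1.18, 2.76 and 2.07 CPM in the cisplatin group and 1.39, 0.882, 0.819, 0.798 and 1.12 CPM in the cotreated group. Zap70 measured 0.449, 0.352, 0.49, 0.138 and 0.326 CPM with vehicle, 1.46, 0.322, 0.19, 0.384 and 0.47 CPM with KW6002, 0.101, 0.152, 0.151, 0.736 and 0.345 CPM with cisplatin and 0.196, 0.11, 0.136, 0.0826 and 0.312 CPM with both drugs. Lck and Zap70 encode the kinases that phosphorylate CD3 chains and relay the signal. KW6002 tumor 1 held 50.6% and 51.7% of their KW6002 totals. Every group overlapped every other for Zap70, where cisplatin tumor 4 ranked next to KW6002 tumor 1. Lat, the adaptor downstream of Zap70, ranged from 0.381 CPM in cisplatin tumor 2 to 2.64 CPM in KW6002 tumor 1. Sh2d1a, an adaptor of SLAM receptors, stayed between 0.0254 and 0.560 CPM and was not tested.

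Surface molecules of T cells again set KW6002 tumor 1 apart. Cd2 stood at 1.0, 0.598, 0.914, 0.165 and 0.326 CPM in vehicle tumors 1 to 5, at 3.7, 0.516, 0.855, 1.22 and 0.723 CPM after KW6002, at 0.169, 0.127, 0.0908, 1.1 and 0.373 CPM after cisplatin and at 0.269, 0.303, 0.341, 0.33 and 0.25 CPM after cotreatment. Cd5 counted 0.414, 0.457, 0.947, 0.0826 and 0.359 CPM in the vehicle group, 2.24, 0.161, 0.253, 0.576 and 0.506 CPM in the KW6002 group, 0.0338, 0.0254, 0.0303, 0.583 and 0.373 CPM in the cisplatin group and 0.122, 0.0276, 0.102, 0 and 0.0624 CPM in the cotreated group. Cd2 encodes an adhesion molecule and Cd5 a receptor that dampens receptor signaling. Cisplatin tumor 4 held 59.2% of the Cd2 of the cisplatin group, 6.53 times the group's median. The cotreated tumors were all below the KW6002 tumors for both genes, and Cd5 was at 0 reads in cotreatment tumor 4. Cd6 measured 0.276, 0.527, 0.588, 0.0275 and 0.293 CPM with vehicle, 2.49, 0.161, 0.411, 0.576 and 0.325 CPM with KW6002, 0, 0.0508, 0.0303, 0.675 and 0.201 CPM with cisplatin and 0.318, 0.0276, 0.171, 0.0275 and 0.0936 CPM with both drugs. Cd27 stood at 0.691, 0.176, 0.392, 0.0275 and 0.228 CPM in vehicle tumors 1 to 5, at 2.11, 0.161, 0.127, 0.576 and 0.362 CPM after KW6002, at 0.0676, 0.0254, 0.121, 0.521 and 0.287 CPM after cisplatin and at 0.343, 0.22, 0.102, 0.11 and 0.125 CPM after cotreatment. Cd6 and Cd27 encode a CD5 relative and a costimulatory receptor of the TNF receptor family. KW6002 tumor 1 held 52.8% of Cd2, 59.9% of Cd5, 62.8% of Cd6 and 63.3% of Cd27 in its group.

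Costimulatory and inhibitory receptors tune the response after receptor engagement. Icos counted 0.725, 0.668, 0.49, 0.165 and 0.717 CPM in the vehicle group, 2.21, 0.29, 0.791, 0.865 and 0.253 CPM in the KW6002 group, 0.169, 0.127, 0.242, 0.797 and 0.373 CPM in the cisplatin group and 0.196, 0.22, 0.239, 0.138 and 0.0936 CPM in the cotreated group. Ctla4 measured 0.656, 0.949, 0.62, 0.248 and 0.196 CPM with vehicle, 1.34, 0.193, 0.57, 1.28 and 0.651 CPM with KW6002, 0.0338, 0.0508, 0.0605, 0.705 and 0.431 CPM with cisplatin and 0.294, 0.11, 0.205, 0.0826 and 0.343 CPM with both drugs. Pdcd1 stood at 0.38, 0.738, 0.686, 0.138 and 0.196 CPM in vehicle tumors 1 to 5, at 0.933, 0.613, 0.855, 1.67 and 0.723 CPM after KW6002, at 0.135, 0.152, 0.182, 0.583 and 0.201 CPM after cisplatin and at 0.269, 0.165, 0.784, 0.165 and 0.0936 CPM after cotreatment. Icos is an inducible costimulator, and Ctla4 and Pdcd1 encode the checkpoint receptors CTLA-4 and PD-1. For Icos, KW6002 tumor 1 held 50.1% of its group, and each cotreated tumor was below each KW6002 tumor. Ctla4 was nearly equal in KW6002 tumors 1 and 4. Pdcd1 was highest in KW6002 tumor 4, 1.79 times the level of tumor 1, so its KW6002 mean of 0.958 ± 0.414 CPM (SD, n = 5) was not set by tumor 1, and every cisplatin tumor was below every KW6002 tumor. Cd28, the main costimulatory receptor, ranged from 0.601 CPM in KW6002 tumor 3 to 2.74 CPM in KW6002 tumor 1.

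Cytokine receptors and the regulatory T cell factor Foxp3 complete the T cell list. Il2ra counted 1.0, 1.09, 0.882, 0.358 and 0.293 CPM in the vehicle group, 2.39, 0.355, 0.665, 1.09 and 0.832 CPM in the KW6002 group, 0.169, 0.533, 0.454, 1.17 and 0.517 CPM in the cisplatin group and 0.465, 0.248, 0.443, 0.193 and 0.437 CPM in the cotreated group. Foxp3 measured 0.587, 0.457, 0.751, 0.22 and 0.457 CPM with vehicle, 1.59, 0.193, 0.0633, 0.512 and 0.145 CPM with KW6002, 0, 0, 0, 0.889 and 0.0861 CPM with cisplatin and 0.147, 0.0827, 0.102, 0.0275 and 0.0936 CPM with both drugs. Il2ra encodes the alpha chain of the high-affinity interleukin 2 receptor, carried by regulatory and activated T cells. Foxp3 was at 0 reads in cisplatin tumors 1, 2 and 3 and reached 0.889 CPM in cisplatin tumor 4, and every vehicle tumor was above every cotreated tumor. Of the 50-base words of Foxp3, 23.1% occur in genes that overlap it, among them Ccdc22 and Ppp1r3f on the opposite strand. Il2rb, shared by the receptors for interleukins 2 and 15, spanned 1.95 CPM in vehicle tumor 4 to 12.0 CPM in KW6002 tumor 1. Il7r, the survival receptor of naive and memory T cells, spanned 0.846 CPM in cisplatin tumor 1 to 10.1 CPM in KW6002 tumor 1.

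**Figure D2:**
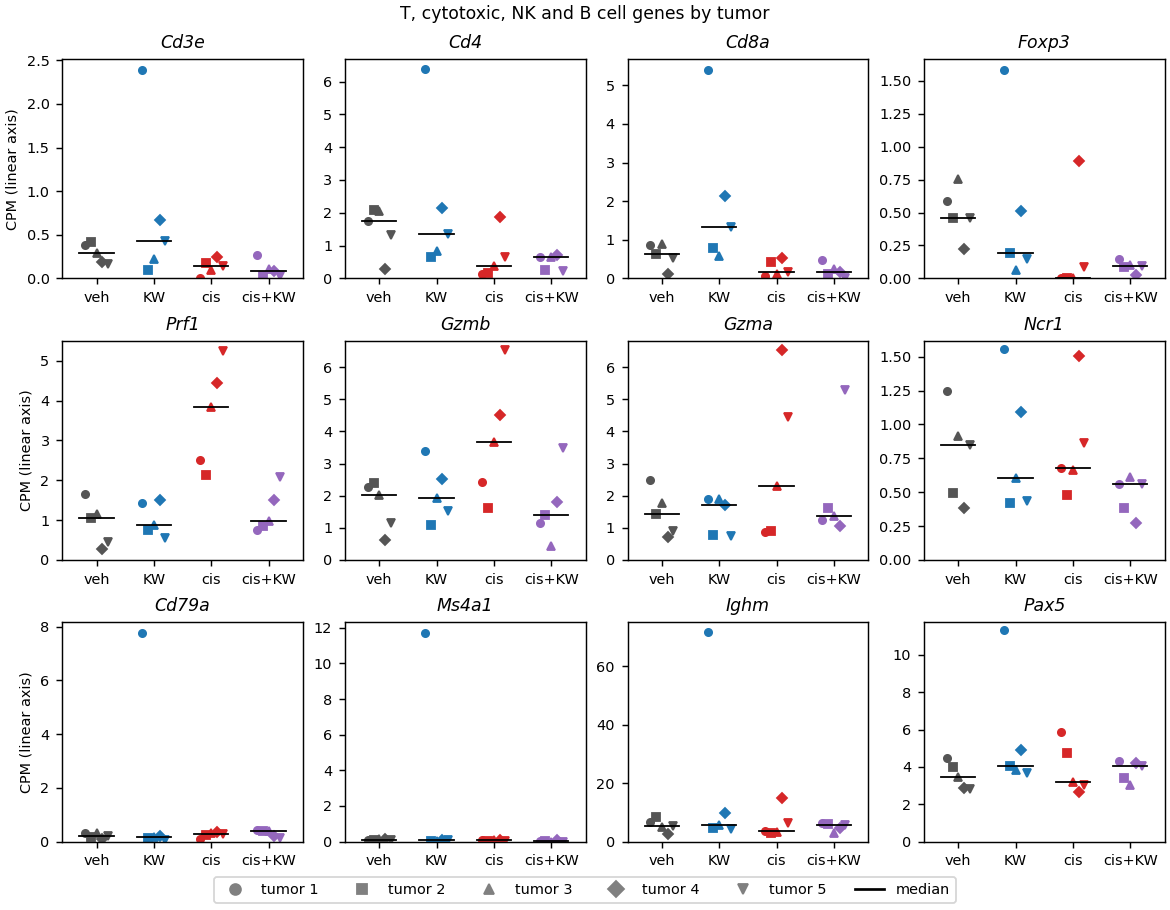
CPM on linear axes for 12 genes in 20 tumors, with veh, KW, cis and cis+KW for vehicle, KW6002, cisplatin and cotreatment, markers for replicate numbers and black bars for group medians. Prf1 lies between 2.13 and 5.25 CPM in the cisplatin tumors and at most at 2.09 CPM elsewhere, while Cd79a, Ms4a1 and Ighm rise far above the rest in KW6002 tumor 1.

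Of the 7 cytotoxic effectors, Prf1, Gzmb, Gzma and Ifng were not highest in KW6002 tumor 1, while Nkg7, Eomes and Tbx21 were. Prf1 stood at 1.66, 1.05, 1.14, 0.275 and 0.457 CPM in vehicle tumors 1 to 5, at 1.43, 0.742, 0.886, 1.5 and 0.542 CPM after KW6002, at 2.5, 2.13, 3.84, 4.45 and 5.25 CPM after cisplatin and at 0.758, 0.854, 0.989, 1.51 and 2.09 CPM after cotreatment. Prf1, the gene of perforin (chr10:61297833-61304680 on the plus strand), was higher in each of the 5 cisplatin tumors than in any other of the 20 tumors, while KW6002 tumor 1, at 1.43 CPM, lay among the other groups. Gzmb counted 2.28, 2.39, 2.02, 0.633 and 1.14 CPM in the vehicle group, 3.39, 1.1, 1.93, 2.53 and 1.52 CPM in the KW6002 group, 2.44, 1.63, 3.66, 4.51 and 6.52 CPM in the cisplatin group and 1.15, 1.41, 0.443, 1.82 and 3.49 CPM in the cotreated group. Gzma measured 2.49, 1.44, 1.76, 0.716 and 0.913 CPM with vehicle, 1.9, 0.774, 1.9, 1.7 and 0.759 CPM with KW6002, 0.879, 0.914, 2.3, 6.53 and 4.45 CPM with cisplatin and 1.25, 1.63, 1.36, 1.05 and 5.3 CPM with both drugs. Granzyme B was highest in cisplatin tumors 5 and 4, with the cisplatin group overlapping vehicle through tumor 2. Granzyme A was spread most within the cisplatin arms, from 0.879 to 6.53 CPM after cisplatin, and cotreatment tumor 5 held 50.1% of the Gzma of its group. Nkg7 stood at 1.42, 2.18, 1.53, 0.578 and 0.783 CPM in vehicle tumors 1 to 5, at 3.51, 1.1, 1.52, 2.34 and 1.55 CPM after KW6002, at 0.778, 0.787, 1.15, 2.27 and 2.07 CPM after cisplatin and at 1.17, 0.882, 0.682, 0.55 and 1.34 CPM after cotreatment. Eomes counted 0.449, 0.738, 0.588, 0.385 and 0.424 CPM in the vehicle group, 1.21, 0.355, 0.411, 1.09 and 0.434 CPM in the KW6002 group, 0.372, 0.533, 0.605, 1.01 and 0.632 CPM in the cisplatin group and 0.391, 0.248, 0.205, 0.33 and 0.468 CPM in the cotreated group. Nkg7 encodes a granule protein of cytotoxic cells and Eomes a transcription factor of NK and memory CD8 T cells. Both were highest in KW6002 tumor 1, with KW6002 tumor 4 next, and the 4 groups overlapped. Ifng and Tbx21, the genes of interferon gamma and of the factor that drives it, were near the detection limit. Ifng had 0 reads in all 5 cotreated tumors, which allows up to 0.0734 to 0.102 CPM per tumor at a floor of 3 reads for counting error only, and it reached 0.173 CPM with vehicle, 0.288 CPM with KW6002 and 0.201 CPM with cisplatin. Tbx21 ranged from 0 to 0.466 CPM.

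The promoter windows of Prf1, Gzma, Gzmb and Nkg7 are printed because they encode the granule machinery, of which Prf1 was the gene called after cisplatin. The window of Prf1 lies at chr10:61297586-61297885 on the plus strand, that of Gzma at chr13:113100932-113101231 on the minus strand, that of Gzmb at chr14:56262285-56262584 on the minus strand and that of Nkg7 at chr7:43436888-43437187 on the plus strand. Capitals mark the RUNX motif TGTGGT, or its reverse complement ACCACA, and the STAT motif TTCNNNGAA, which reads alike in form on both strands. All 4 windows hold a RUNX match, Gzmb 2 of them, and Gzmb and Nkg7 also hold a STAT match. The RUNX motif was in 12 of the 35 lymphocyte gene windows, 34.3%, and in 16.8% of all windows. The other genes with it were Il7r, Klrb1c, Klrk1, Lat, Lck, Ncr1 and Zap70. A match describes letters only.
Prf1: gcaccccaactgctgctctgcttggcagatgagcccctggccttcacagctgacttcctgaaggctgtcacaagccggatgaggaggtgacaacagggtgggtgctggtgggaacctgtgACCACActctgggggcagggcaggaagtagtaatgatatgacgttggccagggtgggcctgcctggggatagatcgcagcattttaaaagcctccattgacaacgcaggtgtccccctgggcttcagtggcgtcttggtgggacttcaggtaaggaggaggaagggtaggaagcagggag
Gzma: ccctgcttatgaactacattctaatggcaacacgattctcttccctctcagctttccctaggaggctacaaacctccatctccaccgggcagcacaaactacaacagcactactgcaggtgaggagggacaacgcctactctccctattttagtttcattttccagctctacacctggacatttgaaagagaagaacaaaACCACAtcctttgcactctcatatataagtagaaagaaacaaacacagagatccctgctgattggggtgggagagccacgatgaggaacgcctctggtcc
Gzmb: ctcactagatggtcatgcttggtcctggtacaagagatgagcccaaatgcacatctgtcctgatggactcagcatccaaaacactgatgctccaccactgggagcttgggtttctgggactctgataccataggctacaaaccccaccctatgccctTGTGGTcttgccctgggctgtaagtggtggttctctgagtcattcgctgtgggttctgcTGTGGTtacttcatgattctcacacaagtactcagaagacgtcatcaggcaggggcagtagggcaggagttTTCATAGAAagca
Nkg7: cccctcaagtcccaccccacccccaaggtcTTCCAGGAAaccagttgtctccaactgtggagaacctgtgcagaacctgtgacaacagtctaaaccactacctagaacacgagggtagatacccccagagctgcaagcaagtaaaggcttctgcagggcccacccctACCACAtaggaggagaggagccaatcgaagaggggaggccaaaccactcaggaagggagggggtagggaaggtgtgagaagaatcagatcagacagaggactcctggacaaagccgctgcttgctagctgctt

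The 4 NK cell receptor genes summed to 2.56 to 6.33 CPM with vehicle, 3.87 to 9.42 with KW6002, 2.77 to 8.49 with cisplatin and 2.59 to 5.11 CPM with cotreatment. Ncr1 measured 1.24, 0.492, 0.914, 0.385 and 0.848 CPM with vehicle, 1.55, 0.419, 0.601, 1.09 and 0.434 CPM with KW6002, 0.676, 0.482, 0.666, 1.5 and 0.861 CPM with cisplatin and 0.563, 0.386, 0.614, 0.275 and 0.562 CPM with both drugs. Ncr1 encodes NKp46, a receptor almost restricted to NK cells. KW6002 tumor 1 and cisplatin tumor 4 were the highest, and the groups overlapped throughout. Klrk1, the gene of the activating receptor NKG2D, ranged from 0.798 CPM in vehicle tumor 4 to 3.67 CPM in KW6002 tumor 1. Klrd1, which encodes CD94, ranged from 0.716 CPM in cotreatment tumor 4 to 2.89 CPM in KW6002 tumor 1. Klrb1c, the gene of NK1.1, was highest in cisplatin tumors 4 and 5 at 2.09 and 1.64 CPM and lowest in KW6002 tumor 2 at 0.290 CPM. Summed over the 11 NK and cytotoxic genes, cisplatin tumors 4 and 5 reached 27.7 and 26.5 CPM, above KW6002 tumor 1 at 21.5 CPM. Other lists also set these 2 tumors apart from cisplatin tumors 1 to 3, which held 8.91 to 15.1 CPM of the NK and cytotoxic genes. The 8 fibroblast genes summed to 14875 and 12713 CPM in tumors 4 and 5 against 9013 to 10191 CPM, and the 10 dendritic cell genes to 91.0 and 73.1 CPM against 34.5 to 53.8 CPM. Cxcl13 had 155 and 163 reads against 3 to 6. Their part in the NK and cytotoxic values was not tested.

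B cell genes set KW6002 tumor 1 apart most. Cd79a stood at 0.311, 0.176, 0.326, 0.11 and 0.196 CPM in vehicle tumors 1 to 5, at 7.77, 0.129, 0.158, 0.192 and 0.0723 CPM after KW6002, at 0.101, 0.254, 0.303, 0.368 and 0.287 CPM after cisplatin and at 0.416, 0.386, 0.375, 0.22 and 0.125 CPM after cotreatment. Cd79b counted 0.622, 0.352, 0.49, 0.248 and 0.522 CPM in the vehicle group, 11.2, 0.677, 0.38, 0.64 and 0.542 CPM in the KW6002 group, 0.271, 0.559, 0.605, 0.552 and 0.66 CPM in the cisplatin group and 0.416, 0.551, 0.512, 1.13 and 0.312 CPM in the cotreated group. Ms4a1 measured 0.0691, 0.105, 0.131, 0.138 and 0.0978 CPM with vehicle, 11.7, 0.0322, 0.0317, 0.064 and 0.0723 CPM with KW6002, 0.0676, 0.0254, 0.0605, 0.0613 and 0.0287 CPM with cisplatin and 0.0489, 0.0276, 0, 0.0826 and 0 CPM with both drugs. The CD79 chains transmit the B cell receptor signal, and Ms4a1 encodes CD20. KW6002 tumor 1 held 93.4% of Cd79a, 83.4% of Cd79b and 98.3% of Ms4a1 in its group, and Ms4a1 counted 377 reads there and 0 to 5 reads in every other tumor. Cd22 stood at 1.45, 1.55, 1.83, 0.33 and 1.5 CPM in vehicle tumors 1 to 5, at 16.0, 0.774, 1.17, 1.5 and 0.796 CPM after KW6002, at 0.778, 1.73, 2.33, 5.77 and 3.45 CPM after cisplatin and at 1.39, 2.29, 1.09, 1.43 and 1.56 CPM after cotreatment. Blk counted 0.0345, 0, 0.0326, 0 and 0.0326 CPM in the vehicle group, 2.98, 0, 0.095, 0.256 and 0 CPM in the KW6002 group, 0.0338, 0.0762, 0, 0.0307 and 0.0574 CPM in the cisplatin group and 0.0489, 0.0276, 0.136, 0.0275 and 0.0624 CPM in the cotreated group. Cr2 measured 0, 0.0703, 0, 0.055 and 0.0326 CPM with vehicle, 6.19, 0.0322, 0, 0 and 0 CPM with KW6002, 0.169, 0.0508, 0.0303, 0.123 and 0.0287 CPM with cisplatin and 0.0245, 0.0827, 0, 0.055 and 0 CPM with both drugs. Cd22 is an inhibitory receptor of B cells, Blk a B cell kinase and Cr2 the complement receptor CD21 of mature B cells and follicular dendritic cells. The same tumor held 79.1%, 89.5% and 99.5% of these genes in its group, and Cr2 had no reads in KW6002 tumors 3, 4 and 5. Cd22 was also raised in cisplatin tumors 4 and 5, at 5.77 and 3.45 CPM. Pax5, the factor that fixes B cell identity, ranged from 2.67 CPM in cisplatin tumor 4 to 5.89 CPM in cisplatin tumor 1 in the 19 other tumors and reached 11.3 CPM in KW6002 tumor 1. Per kilobase of exon its mean level with vehicle was 0.397 CPM, against 0.154 CPM for Cd79a and 0.0175 CPM for Ms4a1, and Pax5 overlaps 3 genes on the opposite strand.

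Ighm stood at 6.53, 8.54, 5.0, 2.72 and 5.22 CPM in vehicle tumors 1 to 5, at 71.7, 4.58, 5.54, 9.67 and 4.38 CPM after KW6002, at 3.72, 2.87, 3.3, 14.8 and 6.26 CPM after cisplatin and at 6.31, 6.17, 2.83, 4.76 and 5.55 CPM after cotreatment. Ighd counted 0.0691, 0.141, 0.0653, 0.165 and 0.196 CPM in the vehicle group, 24.1, 0.161, 0.095, 0.256 and 0.0723 CPM in the KW6002 group, 0.0676, 0, 0.0605, 0.092 and 0.0574 CPM in the cisplatin group and 0.0979, 0.0551, 0.136, 0.11 and 0.125 CPM in the cotreated group. Jchain measured 0.311, 0.457, 0.326, 0.055 and 0.228 CPM with vehicle, 12.8, 0.419, 0.348, 0.929 and 0.398 CPM with KW6002, 0.406, 0.152, 0.182, 1.1 and 0.287 CPM with cisplatin and 0.587, 0.22, 0.205, 0.138 and 0.125 CPM with both drugs. Ighm and Ighd encode the constant regions of immunoglobulins M and D, the receptors of naive B cells, and Jchain the protein that joins secreted immunoglobulin units. KW6002 tumor 1 held 74.8%, 97.6% and 86.0% of them in its group. Cisplatin tumor 4 followed for Ighm with 14.8 CPM and for Jchain with 1.10 CPM, and it held 51.8% of the Jchain of the cisplatin group. Summed over 10 B cell genes, KW6002 tumor 1 reached 176 CPM against a group median of 11.6 CPM, while the medians of vehicle, cisplatin and cotreatment were 11.7, 11.5 and 12.2 CPM. Without tumor 1 the KW6002 mean of this sum fell from 45.3 to 12.7 CPM. Among the 19 further B and plasma cell genes highest in this tumor were Fcer2a, Igkc and Ighg2c, picked after their values were seen, with 304, 2450 and 1148 reads there and at most 5, 111 and 15 reads in the other tumors. Another tumor was the highest for the remaining 7, namely Cd37, Cd72, Blnk, Ebf1, Cd180, Igha and Tnfrsf17.

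The window of Cd22, at chr7:30878979-30879278 on the minus strand, is shown because it was the only one of the 35 with a match to the EBF1 motif, in capitals, which 0.904% of all windows hold. The octamer ATTTGCAT, the motif of B cell factors of the OCT family, was in 0 of 35 windows and in 1.74% of all. The ETS motif CCGGAA was in 2.86% of the 35, in Zap70, and in 14.9% of all.
Cd22: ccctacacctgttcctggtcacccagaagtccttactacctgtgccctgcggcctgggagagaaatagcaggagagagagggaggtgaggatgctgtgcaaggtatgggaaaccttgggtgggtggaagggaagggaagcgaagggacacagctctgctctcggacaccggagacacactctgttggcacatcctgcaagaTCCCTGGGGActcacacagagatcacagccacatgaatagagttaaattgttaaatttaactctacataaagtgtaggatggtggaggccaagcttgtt

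**Figure D3:**
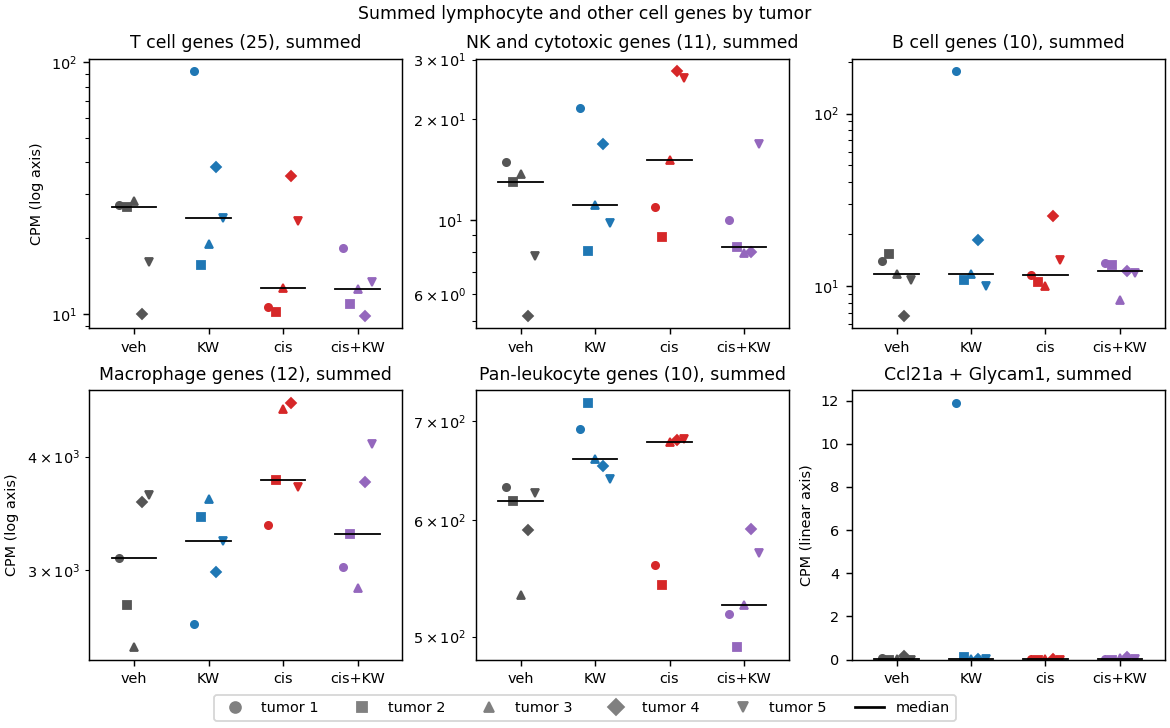
Summed CPM of the T, NK and cytotoxic, and B cell genes (top row, log axes) and of macrophage genes, pan-leukocyte genes (log axes) and the lymph node stroma genes Ccl21a and Glycam1 (linear axis) per tumor, with black bars for group medians. KW6002 tumor 1 reaches 91.9 CPM for T and 176 CPM for B cell genes and is the only tumor with over 1 CPM of Ccl21a and Glycam1.

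KW6002 alone was compared with vehicle to see what blocking this adenosine receptor did to lymphocyte genes. No lymphocyte gene passed the test, as did none of the 16665 genes (0% called). At an unadjusted P under 0.05 there were 11 of 39, all higher with KW6002, namely Cd3e, Trbc1, Trbc2, Cd8a, Cd8b1, Pdcd1, Cd79a, Cd79b, Pax5, Ighm and Jchain, where 2.03% of all genes were. DESeq2 called 0 as well, with 9 at an unadjusted P under 0.05, where 1.79% of all genes were. The median log2 fold change over the 39 genes was 0.69, against -0.00 over all genes tested. Without KW6002 tumor 1 that median was 0.12, and 1 gene, Pdcd1, had an unadjusted P under 0.05, where 1.89% of all genes did. Cd8a differed by 1.78 on the log2 scale (SE 0.65, adjusted P = 1) and Cd8b1 by 2.23 (SE 0.73, adjusted P = 1). Without KW6002 tumor 1 these differences were 1.01 and 1.14 (adjusted P = 1 for both). The 5 KW6002 tumors did not stand clear of the vehicle tumors for any of the 46 genes, against 0.342% of all genes.

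Cisplatin was compared with vehicle for its effect on the same genes. Prf1 rose, and it was the only lymphocyte gene called, 1 of 39, where 10.6% of all genes were called and 6.01% were called higher. It was 3.99-fold higher (log2 fold change 2.00, SE 0.41, adjusted P = 0.00249), from 0.917 ± 0.557 to 3.64 ± 1.31 CPM (SD, n = 5), with no overlap between the groups, as for 10.4% of all genes. The call held in each of the 20 fits that left out 1 tumor. Without both cisplatin tumors 4 and 5 the log2 fold change was 1.64 (adjusted P = 0.0214), while Gzmb was at 0.62 (adjusted P = 0.477) and Gzma at -0.08 (adjusted P = 0.949). Cd5, Ctla4 and Foxp3 were then called lower too, so 4 of 39 genes passed, where 9.35% of all genes did, and Foxp3 had 0 reads in the 3 cisplatin tumors left. Within the later run of library codes the log2 fold change was 2.65 (adjusted P = 0.00184), and the earlier run had 1 vehicle tumor and gave no value. Gzmb differed by 1.15 (SE 0.47, adjusted P = 0.1) and Gzma by 1.05 (SE 0.57, adjusted P = 0.224), neither past the threshold. In the later run Gzmb, Gzma, Klrb1c and Cd22 were called higher too, so 5 of 40 genes passed there, where 15.9% of all genes did. The median log2 fold change over the 24 T cell genes was -0.68, with 0 called. At an unadjusted P under 0.05 there were 0 of these genes, where 30.9% of all genes were. The widest of the T cell genes were Foxp3 at -1.34 (SE 0.92, adjusted P = 0.34) and Cd8b1 at -1.26 (SE 0.93, adjusted P = 0.376). Without cisplatin tumor 4, Foxp3 passed the test as lower (log2 fold change -4.25, adjusted P = 0.00957), and the median over the 39 genes moved from -0.25 to -0.60. Of the other cell types, 7 of 8 mast cell genes, 8 of 8 endothelial genes and 2 of 6 neutrophil genes were called lower. Of the macrophage and dendritic cell genes 1 of 12 and 1 of 9 were called, both higher, shares near that of all genes. All 5 red blood cell genes were lower, with summed levels of at most 0.0613 CPM after cisplatin and of 25.9 to 117 CPM with vehicle. The summed mast cell genes were 38.8 to 109 CPM with vehicle and 4.22 to 31.4 CPM with cisplatin, and the part of these cells in the lymphocyte values was not tested.

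Cotreatment was compared with vehicle. Here Cd5 and Icos fell, 2 of 39 genes, where 23.5% of all genes were called and 10.4% were called lower. Cd5 dropped by 2.76 on the log2 scale (SE 0.98, adjusted P = 0.0344) and Icos by 1.61 (SE 0.60, adjusted P = 0.0437). Both genes rest on few reads after cotreatment, with a mean of 2.2 reads for Cd5 and 6.2 reads for Icos. Both groups overlapped through vehicle tumor 4, which was the lowest of its group for both genes. Cd5 kept its call in 13 of the 20 fits that left out 1 tumor, and lost it without vehicle tumors 1, 2 or 3 or cotreatment tumors 2, 3, 4 or 5 (adjusted P 0.0503 to 0.102). Icos kept its call in 7 of 20 fits, and lost it without any 1 of vehicle tumors 1, 2, 3 and 5, KW6002 tumors 3 and 4, cisplatin tumors 3 and 5 and all 5 cotreated tumors (adjusted P 0.0514 to 0.0935). With no filter on low counts neither was called (adjusted P 0.0966 for Cd5 and 0.103 for Icos), and with the replicate number as a block Icos was not (adjusted P = 0.052). A fit of vehicle and cotreatment alone did not test either gene. Within the later run 0 of 40 genes passed, where 12.8% of all genes did. Foxp3 was lower in every cotreated tumor than in any vehicle tumor, as 24.7% of all genes were without overlap in either direction, with a log2 fold change of -2.38 (SE 1.02, adjusted P = 0.0776) that missed the threshold. It passed without KW6002 tumor 1 (adjusted P = 0.0462) and without cisplatin tumor 4 (adjusted P = 0.0167). Prf1 differed by 0.44 (SE 0.41, adjusted P = 0.433) and Gzmb by -0.02 (SE 0.48, adjusted P = 0.982). The median was -1.03 over 24 T cell genes, -0.35 over 9 NK and cytotoxic genes and 0.17 over 6 B cell genes, against -0.02 over all genes. Of the endothelial genes 7 of 8 were lower as well, of the mast cell genes 5 of 8, of the pan-leukocyte genes 5 of 10, of the neutrophil genes 4 of 6, of the dendritic cell genes 4 of 9 and of the red blood cell genes 5 of 5. Of 12 macrophage genes 3 were higher and 2 lower. Of the lymph node stroma genes only Cxcl13 was tested, and it was called higher (log2 fold change 3.44). Cxcl13 had 73 to 712 reads with cotreatment and 2 to 83 reads with vehicle. The part of these genes and cells in the lymphocyte values was not tested.

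Cotreatment was set against cisplatin to ask whether KW6002 altered the lymphocyte response to the drug. Prf1 fell, 1 of 39 genes, where 4% of all genes were called and 1.71% were called lower. It was 2.93-fold lower after cotreatment (log2 fold change -1.55, SE 0.39, adjusted P = 0.0238), at 1.24 ± 0.557 against 3.64 ± 1.31 CPM (SD, n = 5), and the lowest cisplatin tumor, at 2.13 CPM, was close to the highest cotreated one, at 2.09 CPM (groups did not overlap for 4.83% of all genes). Within the earlier run the difference was -1.41 (adjusted P = 0.0465), and within the later run it was -1.32 and was not called (adjusted P = 0.324), where 1 of all 17222 genes tested was called. The call held in 14 of the 20 fits that left out 1 tumor and was lost without cisplatin tumors 3, 4 or 5 or cotreatment tumors 1, 2 or 3, where the adjusted P was 0.0529 to 0.0763. Without both cisplatin tumors 4 and 5 the difference was -1.19 and was not called (adjusted P = 0.13). The call was also lost with no filter on low counts and without KW6002 tumor 1 and cisplatin tumor 4 together. Gzmb differed by -1.17 (SE 0.47, adjusted P = 0.14) and Eomes by -0.93 (SE 0.36, adjusted P = 0.128), neither past the threshold. None of the 24 T and 6 B cell genes tested among the 46 was called. In the same contrast 3 of 10 pan-leukocyte genes, 1 of 12 macrophage genes and 1 of 9 dendritic cell genes were called lower, and 1 of 8 mast cell genes and 1 of 8 endothelial genes higher. The part of these cells in the Prf1 value was not tested.

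Cotreatment was also compared with KW6002 alone, the contrast that adds cisplatin under blockade of the adenosine receptor. Of 39 lymphocyte genes 22 were called, all lower (56.4%), where 23.3% of all genes were called and 10.7% were called lower. Without KW6002 tumor 1 there were 9 calls (23.1%), where 20.9% of all genes were called. The 22 were 18 of 24 T cell genes, 2 of 9 NK and cytotoxic genes and 2 of 6 B cell genes. All 6 receptor and CD3 genes and all 3 coreceptor genes were among them. Cd8a was 10.0-fold lower (log2 fold change -3.33, SE 0.72, adjusted P = 0.00146), Cd8b1 10.5-fold lower (-3.39, SE 0.80, adjusted P = 0.0027) and Cd4 4.52-fold lower (-2.18, SE 0.73, adjusted P = 0.027). Cd3e dropped by 2.81 on the log2 scale (SE 0.74, adjusted P = 0.00586), and Lck dropped by 1.51 (SE 0.45, adjusted P = 0.0132). The other called T cell genes were Zap70, Cd2, Cd5, Cd6, Icos, Ctla4, Pdcd1 and Il2ra, with log2 fold changes from -3.50 (Cd5) to -1.58 (Il2ra). Among cytotoxic genes Nkg7 dropped by 1.11 (SE 0.39, adjusted P = 0.0333) and Eomes by 1.08 (SE 0.36, adjusted P = 0.024). Prf1 differed by 0.27 (SE 0.41, adjusted P = 0.652) and Gzma by 0.58 (SE 0.58, adjusted P = 0.472). Of the B cell genes Cd79b dropped by 2.20 (SE 0.78, adjusted P = 0.0362) and Jchain by 3.50 (SE 1.00, adjusted P = 0.0116). Neither B cell gene was called by limma voom with sample weights (adjusted P 0.399 for Cd79b and 0.098 for Jchain) or in a fit of the 2 groups alone (0.151 and 0.0664), and DESeq2 gave neither an adjusted P. Groups did not overlap for 8 of the 39, namely Cd3g, Trbc1, Trbc2, Cd8a, Cd8b1, Cd2, Cd5 and Icos, all lower, where 24.9% of all genes did not overlap and 12.7% did so in the lower direction.

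Of these 22 calls 13 were lost without KW6002 tumor 1, and the 9 genes called without it were all among the 22. They were Cd3e, Cd3g, Trbc1, Trbc2, Cd8a, Cd8b1, Cd5, Icos and Pdcd1, all T cell genes. The median log2 fold change over the 39 genes moved from -1.75 to -0.81. Cd8a was still lower by a log2 fold change of -2.56 (adjusted P = 0.00537) and Cd8b1 by -2.30 (adjusted P = 0.0141). Cd3e was lower by a log2 fold change of -1.70 (adjusted P = 0.0457) and Cd5 by -2.50 (adjusted P = 0.0372). Pdcd1 was -1.72 with the tumor and -1.74 without it. Among the calls lost, Cd4 went from -2.18 to -1.30 (adjusted P = 0.148) and Lck from -1.51 to -0.81 (adjusted P = 0.0808). Zap70 was at -1.01, Il2ra at -1.04, Cd2 at -1.46, Cd6 at -1.48 and Ctla4 at -1.69 without the tumor. Nkg7 went from -1.11 to -0.81 (adjusted P = 0.124) and Eomes from -1.08 to -0.79 (adjusted P = 0.104). Jchain went from -3.50 to -0.995 (adjusted P = 0.21) and Cd79b from -2.20 to 0.06 (adjusted P = 0.915), and no B cell gene was called. Without cotreatment tumor 2 there were 13 calls, where 19.6% of all genes were called. Within the later run, which does not hold KW6002 tumor 1, 5 of 40 genes passed, namely Cd3e, Trbc2, Cd8a, Cd8b1 and Pdcd1, where 9.6% of all genes did, and within the earlier run 9 of 45 passed, where 19.4% of all genes did, with Foxp3 among them and Cd8a at an adjusted P of 0.0648. Mast cell, endothelial and red blood cell genes were lower in the same contrast, 8 of 8, 7 of 8 and 5 of 5. So were 6 of 9 dendritic cell genes and 4 of 6 neutrophil genes. Of 12 macrophage genes 2 were higher and 2 lower, and of 8 fibroblast genes 2 were higher and 2 lower. Of the fat and skeletal muscle genes 0 were called. The part of these cells in the result was not tested. Of 10 pan-leukocyte genes 5 were called lower, with summed levels of 640 to 721 CPM after KW6002 and 492 to 592 CPM after cotreatment, and KW6002 tumor 1 was not the highest of its group for that sum.

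**Figure D4:**
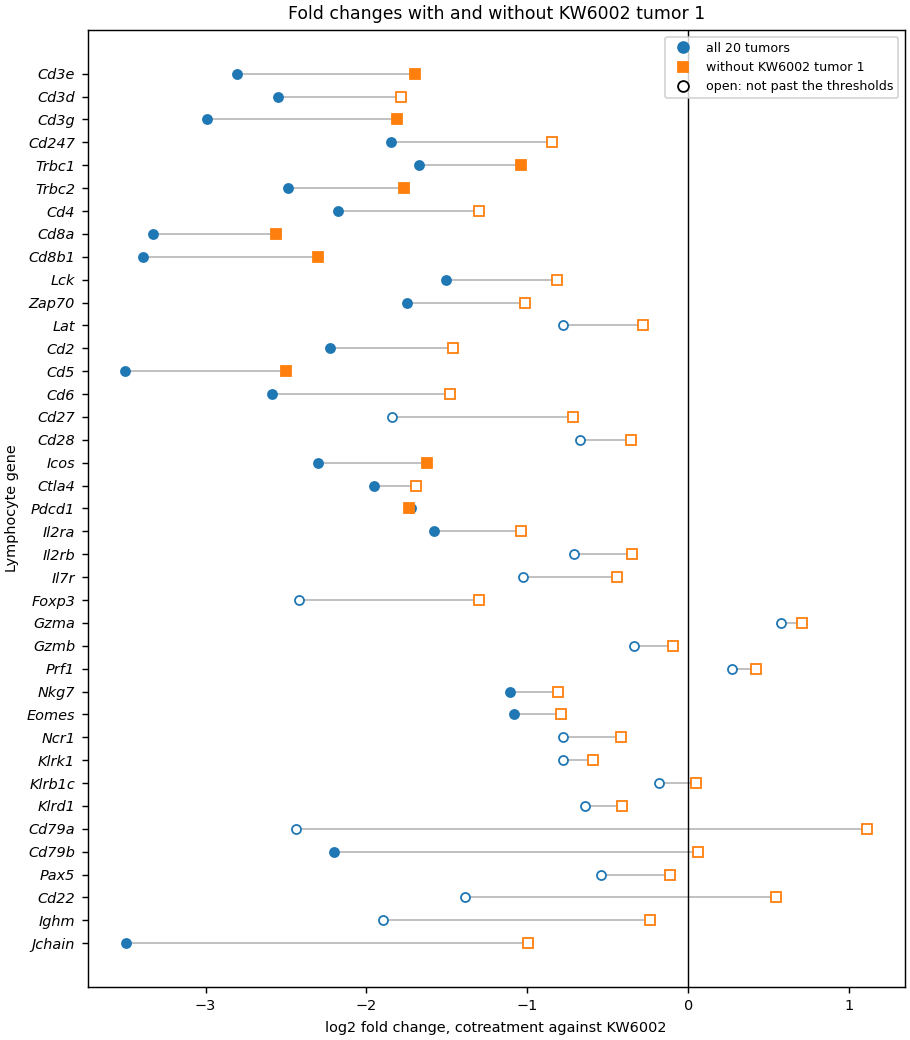
Log2 fold change of cotreatment against KW6002 for the 39 tested lymphocyte genes, with all 20 tumors (circles) and without KW6002 tumor 1 (squares), joined by gray lines, filled where the gene passed the test. The 22 filled circles all lie below 0, and the 9 filled squares are T cell genes between -2.56 and -1.04.

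The interaction (cotreatment against cisplatin, less KW6002 against vehicle, on the log2 scale) was called for 0 of 39 genes with edgeR, where 0.066% of all genes were called, and for 0 of 39 with DESeq2, where 1.57% were. At an unadjusted P under 0.05 there were 10 with edgeR, where 12.2% of all genes were, and 13 with DESeq2, where 12.7% were. Prf1 had an interaction of -1.73 (SE 0.57, adjusted P = 0.212), and Jchain had the widest at -4.13 (SE 1.48, adjusted P = 0.26). Without KW6002 tumor 1 these were -1.58 (adjusted P = 0.359) and -1.63 (adjusted P = 0.522). limma voom with sample weights called 1 of 39, Prf1, where it called 1.97% of all genes. Whether the drop of Prf1 from cisplatin to cotreatment differed from the KW6002 difference without cisplatin thus depended on the tool.

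Further lymphocyte genes outside the 46 were counted in 2 lists. Of 51 other T and NK cell genes 40 were tested. After cisplatin 7 were higher and 1 lower, after cotreatment 8 and 8 against vehicle, and 8 and 11 against KW6002, while cotreatment against cisplatin gave 1 and 3. The shares of all genes called in these comparisons were 10.6%, 23.5%, 23.3% and 4%. Klra4, of the Ly49 family of NK cell receptors, rose after cisplatin by 1.46 on the log2 scale (SE 0.14, adjusted P = 1.48e-06) and after cotreatment by 1.57 (SE 0.14, adjusted P = 1.52e-07), both against the same vehicle tumors. In cotreatment against KW6002 it rose by 1.74 (SE 0.14, adjusted P = 5.21e-08). It had 300 to 510 reads with vehicle and 883 to 1667 with cisplatin, far above its relatives Klra7 and Klra8, at 3 to 34 reads in the 20 tumors, and 0 of the 4 NK receptor genes above were called after cisplatin. Gzmf and Gzmd, granzymes of activated killer cells, rose after cisplatin by 4.58 (SE 0.55, adjusted P = 3.08e-05) and 4.49 (SE 0.58, adjusted P = 4.72e-05). Gzmf also rose after cotreatment, by 3.05 against vehicle (SE 0.54, adjusted P = 0.000277). Gzmf had 3 to 18 reads with vehicle and 141 to 492 reads with cisplatin, and it shared 19.4% of its 50-base words with other genes, among them Gzmg and Gzmd. S1pr1, an exit receptor of lymphocytes also found on endothelium, fell after cotreatment by 0.65 against vehicle (SE 0.11, adjusted P = 0.000119). Of 26 other B and plasma cell genes 11 were tested, and 0 were higher in any comparison. Those lower numbered 1 after cisplatin, 4 after cotreatment, 2 in cotreatment against cisplatin and 7 in cotreatment against KW6002, beside the same shares of all genes. Without KW6002 tumor 1, cotreatment against KW6002 gave 8 higher and 8 lower of the T and NK cell list and 1 higher and 4 lower of the B and plasma cell list, where 20.9% of all genes were called. The B and plasma cell list then had 2 higher in cisplatin and in cotreatment against vehicle. Cd180, a receptor of B cells and macrophages, was lower by 0.71 against cisplatin, and it fell by 0.99 against KW6002 (SE 0.15, adjusted P = 4.54e-05). Blnk, the B cell adaptor, fell by 0.70 against cisplatin (SE 0.16, adjusted P = 0.0119). Lcp2, an adaptor of T cells and other blood cells, fell by 0.48 against KW6002 (SE 0.07, adjusted P = 3.33e-05), and Il18rap, a chain of the interleukin 18 receptor, rose by 0.65 against cisplatin (SE 0.14, adjusted P = 0.0119). Il18rap had 7459 to 23431 reads in the 20 tumors, where Klre1, Klrg1 and Cxcr3 of the same list had at most 35, 19 and 68.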

How the data were processed

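The 46 genes and the other lists were chosen with earlier results of these data known. Stranded poly(A) libraries (TruSeq) were sequenced as single 50-base reads. As deposited, the authors' table holds raw counts per Ensembl gene, made with bcl2fastq 2.17.1.14, STAR on mm10 (uniquely mapped reads) and HTSeq 0.6.1p1 in union mode; the strand setting is not given in the sources used here. Symbols and positions came from the GENCODE M21 annotation of GRCm38, and 84 genes had no symbol. Group labels came from the sample labels. Genes passing edgeR's expression filter by group (16665, 99.9% of counts) were tested with TMM scaling and the robust quasi-likelihood test (edgeR 4.0.16, R 4.3.3) in 1 model of 4 groups and 6 comparisons. A gene was called at a Benjamini-Hochberg adjusted P under 0.05 over all genes tested and a log2 fold change of at least 0.32 in size. CPM used TMM-scaled library sizes. Alternatives used DESeq2 1.42.0 and limma 3.58.1. The settings that leave out KW6002 tumor 1 and cisplatin tumor 4 together, or cisplatin tumors 4 and 5 together, or keep 1 run of library codes, were added after seeing the data. No 2 libraries of the same group were duplicates, and pairs across groups were not checked for this. Values in every tumor are given for genes called in a comparison or dominated by 1 tumor, and for 10 lineage genes (35 in all). Of the other lymphocyte genes, the 3 called with the smallest adjusted P and a mean of at least 10 counts are named per comparison.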

Additional observations from a re-analysis of the deposited data

Results flagged for a closer look

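Single tumors far from the other 4 of their group, by Dixon's test, were found in 32 of 143 checks of a gene or summed list in a group. Groups were checked where they averaged at least 10 reads. Ms4a1, Blk, Cr2 and Ighd met this minimum only in the KW6002 group, where tumor 1 held 89.5% to 99.5% of their CPM. Their flags thus follow from the minimum. Cd27 and Cd79a in the KW6002 group, and Cd2 and Jchain in the cisplatin group, also met it only through the flagged tumor. Chance gives about 1 in 20 such groups if values are normally distributed, which was not tested for CPM, and the checks share tumors. That rate does not hold for groups that met the minimum through 1 tumor. Of the 32 flags, KW6002 tumor 1 accounted for 23. Its T cell values were 2.39 CPM for Cd3e, 5.01 for Cd3g, 3.05 for Cd247, 3.64 for Trbc1, 6.37 for Cd4, 3.39 for Cd8b1, 1.46 for Zap70, 3.7 for Cd2, 2.24 for Cd5, 2.49 for Cd6, 2.11 for Cd27 and 10.1 CPM for Il7r. Its B cell values were 7.77 CPM for Cd79a, 11.2 for Cd79b, 11.7 for Ms4a1, 11.3 for Pax5, 16.0 for Cd22, 2.98 for Blk, 6.19 for Cr2, 71.7 for Ighm, 24.1 for Ighd, 12.8 for Jchain and 176 CPM for the 10 genes summed. No cytotoxic or NK gene was among these 23.

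Cisplatin tumor 4 accounted for 5, with Lat at 0.981 CPM, Cd2 at 1.1 CPM, Ighm at 14.8 CPM, Jchain at 1.1 CPM and the summed B cell genes at 25.6 CPM. Cotreatment tumor 5 was set apart by Gzma at 5.3 CPM and by the summed NK and cytotoxic genes at 16.8 CPM. The remaining 2 were low values, Cd79b at 0.271 CPM in cisplatin tumor 1 and Cd22 at 0.33 CPM in vehicle tumor 4.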

How the results depend on the processing

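Counts of lymphocyte genes called were compared with 0, 1, 2, 1, 22 and 0 in KW6002 and cisplatin and cotreatment against vehicle, cotreatment against cisplatin, cotreatment against KW6002, and the interaction. Shares of all genes called in the same fit are given in parentheses. For cisplatin against vehicle the count was 2 with DESeq2 (11.5%) and with limma voom weights (10.8%), 5 of 40 in the later run of library codes (15.9%), 4 without both KW6002 tumor 1 and cisplatin tumor 4 (8.57%), 4 without both cisplatin tumors 4 and 5 (9.35%), and 1 to 2 when 1 tumor was left out (8.2% to 12.2%). For cotreatment against vehicle it was 0 without a filter on low counts (10.5%), 0 of 16 with at least 10 counts in every tumor (23.5%) and 0 in the later run (12.8%). It was 6 without KW6002 tumor 1 and cisplatin tumor 4 (23.9%), 4 without cisplatin tumors 4 and 5 (24.5%) and 0 to 4 with 1 tumor left out (19.8% to 24.2%), while DESeq2 and voom weights gave 3 each (23.7% and 25.8%). A fit of these 2 groups alone called 3 of 26 (24.4%) and did not test Cd5 or Icos. For cotreatment against cisplatin it was 0 without a filter (1.38%), without KW6002 tumor 1 and cisplatin tumor 4 (2.98%) and without cisplatin tumors 4 and 5 (3.42%), and 0 to 2 with 1 tumor left out (1.72% to 6.03%). It was 0 in the later run, where 1 gene of 17222 was called. For cotreatment against KW6002 it was 3 of 16 with at least 10 counts in every tumor (23.4%), 5 of 40 in the later run (9.6%), 9 of 45 in the earlier run (19.4%), 12 without KW6002 tumor 1 and cisplatin tumor 4 (21.5%) and 9 to 27 with 1 tumor left out (19.6% to 24.2%). Without a filter on low counts, cotreatment against KW6002 gave 18 of 46, with 15 of them among the 22, where 3746 of all genes were called. The interaction had 1 call (Prf1) with voom weights. A limit of 40% gave 47 dominating tumors in place of 31. Cd79b in cotreatment against KW6002 reversed to 0.49 in the later run and 0.074 without KW6002 tumor 1 and cisplatin tumor 4, and its log2 fold change ran from -2.58 to 0.064 with 1 tumor left out. Fewer genes were tested under the count minimum and fewer tumors in each run; other causes were not tested.

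The replicate numbers did not pair the tumors. Over 30 pairs with the same number the correlation of deviations ran from -0.39 to 0.39, with 12 over 0.1. Over 120 pairs with other numbers it ran from -0.44 to 0.47, with 39 over 0.1. The medians were -0.026 and 0.007. With the replicate block the counts were 0, 1, 1, 1, 16 and 0, and Icos in cotreatment against vehicle was lost. Shares of all genes called with the block are not given here, so these counts are not set against them. In cotreatment against KW6002 the block lost the calls of Cd247, Cd4, Cd6, Ctla4, Nkg7 and Cd79b.

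Of the 46 genes, 15 averaged under 1 CPM in all 4 groups, so their values rest on few reads. The 11 of these that were tested were Cd3e, Zap70, Cd5, Cd6, Cd27, Icos, Ctla4, Pdcd1, Foxp3, Eomes and Ncr1.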
